A study of Mus musculus with 6 samples.

Results

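The 10 genes described here are 6 matrix metalloproteinases (Mmp8, Mmp9, Mmp12, Mmp13, Mmp14 and Mmp19), the 3 tissue inhibitors of metalloproteinases Timp1, Timp2 and Timp3, and Adam17, a related membrane protease. They were chosen by name, for their known place in smoke-induced emphysema, and all 10 were found by symbol among the 19386 genes of the authors' expression table. The RNA came from bone marrow-derived macrophages, cells grown from the marrow of wild-type C57BL/6 mice in medium with 10% supernatant of L929 cells and harvested on day 11. One group of 3 libraries came from mice kept in room air and the other group of 3 from mice exposed to cigarette smoke, so that the exposure was to the animal and not to the cultured cells. The descriptions of all 6 libraries also carry the label ctl, whose meaning the labels do not give. The ages of the mice and the length of the exposure are not given in the sources used here, and the marrow was cultured mouse by mouse, but whether each library is a different animal is not said, so p-values measure the spread between libraries, which may be technical in part.

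Matrix metalloproteinases are zinc-dependent enzymes that are made as inactive precursors and, once activated, cut collagen, elastin and other matrix proteins, as well as cytokines and other proteases. The TIMP proteins bind the active site and block it, so the outcome in tissue depends on the balance of enzyme, activator and inhibitor. In the lung, alveolar macrophages are a source of macrophage elastase, the product of Mmp12, and mice without that gene are known to be protected from emphysema after long exposure to smoke.

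The expression table holds group means of normalized counts, which are read counts scaled to a common depth, and the result of the authors' own test between the groups. No expression value of a single library was used here, so no replicate spread other than the authors' standard error can be shown, and depth per library is unknown. At an adjusted p of 0.05 none of the 10 genes passed in the DESeq2 comparison of the authors' deposited table, where 7.69% of the 12082 tested genes did. At an unadjusted p under 0.05 there were 2, Mmp12 and Mmp13, both higher after smoke, or 2 of 10 where 22.8% of all tested genes reached this level in either direction and 12% were higher. Point estimates were above 0 for 5 of the 6 metalloproteinases and below 0 for all 3 inhibitors in the authors' deposited table, with a median log2 change (log2 fold change, smoke over air) of 0.24 over the 10 genes against -0.0029 over all tested genes. In these bulk cultures, more cells of a kind and more RNA per cell cannot be told apart.

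Mmp12 and Mmp13 had the lowest p-values of the 10, and the DNA before their start sites is shown here because it holds matches to the motif of the AP-1 factors treated further on. Among the 8 genes with a promoter in the RefSeq table used (GRCm38.p6; Mmp9 and Mmp19 had none), these were the 2 with a match to the AP-1 motif TGANTCA in the window from 250 bases before to 50 bases after a start site, searched on both strands. The same motif was found in 7.81% of 32851 such windows. The window of the upstream start of Mmp12 held none. The 120 bases before the start are printed 5′ to 3′ on the gene's strand, with matches to TGANTCA and to the TATA box TATAAA in capitals, for Mmp12 (chr9:7347254-7347373, plus strand, its downstream start) and Mmp13 (chr9:7272394-7272513, plus strand).
Mmp12: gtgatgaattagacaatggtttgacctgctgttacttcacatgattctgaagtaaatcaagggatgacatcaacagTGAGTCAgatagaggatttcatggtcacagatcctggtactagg
Mmp13: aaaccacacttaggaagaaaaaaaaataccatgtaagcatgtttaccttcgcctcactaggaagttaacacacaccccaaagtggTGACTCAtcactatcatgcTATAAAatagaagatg
Counted from the start site, the AP-1 match lay at -44 to -38 in Mmp12 and at -35 to -29 in Mmp13. A match to TATAAA, found in 13.6% of windows, stood at -16 to -11 in Mmp13, at 4 to 9 in Mmp12 and, on the other strand, at -3 to 2 in Mmp8. The core motif of PU.1, GAGGAAGT, found in 3.2% of windows, had a match in Mmp8 at -221 to -214 and at the upstream start of Mmp12 at -88 to -81, both on the other strand. Such a match describes the letters and shows no binding.

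Macrophage elastase, Mmp12 (ENSMUSG00000049723.14, chromosome 9, 7344381 to 7369499, plus strand, GRCm38), had the largest fold change of the 10. Its mean in the authors' deposited table was 661.3 normalized counts in room air and 1856 after cigarette smoke. The log2 change was 1.49 (SE 0.65, unadjusted p 0.021, adjusted p 0.135 by DESeq2) in that table of the authors, or 2.81-fold with a 95% Wald interval of 1.17-fold to 6.75-fold. The interval excludes equality for this gene taken alone, but its p-value ranked only 1882 of 12082, and the difference did not hold after adjustment over the whole table. Mmp1b (7368239 to 7388047) overlaps Mmp12 on the opposite strand. It was not among the listed genes, so its part in the level of Mmp12 is unknown where strand was not used in counting.

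Collagenase 3, Mmp13 (ENSMUSG00000050578.10, chromosome 9, 7272514 to 7283331, plus strand), cuts fibrillar collagens. Its means in the authors' deposited table were 30.7 normalized counts in room air and 69.8 after smoke. The log2 change there was 1.18 (SE 0.56, unadjusted p 0.0336, adjusted p 0.176 by DESeq2), or 2.27-fold with a 95% Wald interval of 1.07-fold to 4.84-fold. As for Mmp12, the estimate was above 2-fold and did not pass the threshold. An absolute change of at least 2-fold was estimated for 3 of the 10 genes, Mmp12, Mmp13 and Timp3, and for 4.51% of all tested genes. As a log2 ratio of group means with a pseudocount of 1, Timp3 was at -0.75, and with a pseudocount of 10 Mmp13 was at 0.97 and Timp3 at -0.17, so only the size for Mmp12 stayed above 2-fold under each of these.

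Neutrophil collagenase, Mmp8 (ENSMUSG00000005800.3, chromosome 9, 7558456 to 7568485, plus strand), averaged 14.3 normalized counts in room air and 20.5 after smoke in the authors' deposited table, a log2 change of 0.58 (SE 0.80, DESeq2 adjusted p 0.731). Gelatinase B, Mmp9 (ENSMUSG00000017737.2, chromosome 2, 164940780 to 164955850, plus strand), which cuts denatured and basement membrane collagen, had means of only 1.13 and 1.99 in that table of the authors, with a log2 change of 0.91 (SE 0.98, adjusted p 0.638). Both genes are known for high levels in neutrophils. Of 10 neutrophil markers, 4 were listed (S100a8, Cxcr2, Ngp and Ltf), and their summed means were 0.322 normalized counts in room air and 0.508 after smoke. Camp, Elane, Ly6g, Mpo, Retnlg and S100a9 were not listed, so no level is given for them. The part of neutrophils in the values of Mmp8 and Mmp9 was not tested.

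Mmp19 (ENSMUSG00000025355.7, chromosome 10, 128790910 to 128800824, plus strand), a secreted metalloproteinase that acts on basement membrane proteins, averaged 112.9 normalized counts in room air and 158.6 after smoke in the authors' deposited table. Its log2 change was 0.50 (SE 0.44, adjusted p 0.549 by DESeq2), and the 95% Wald interval ran from 0.774-fold to 2.59-fold. Tmem198b, on the opposite strand, overlaps it and had 75.5 and 73.9 normalized counts in the authors' deposited table, so the level of Mmp19 is uncertain where strand was not used in counting. Mmp14 (ENSMUSG00000000957.11, chromosome 14, 54431612 to 54445364, plus strand) encodes a membrane-bound metalloproteinase that activates the precursor of gelatinase A at the cell surface. It was low in both groups, at 6.99 and 6.4 normalized counts in the authors' deposited table, its log2 change being -0.11 (SE 0.56, adjusted p 0.943 by DESeq2). For Mmp8, Mmp9 and Mmp14 a change of 1.5-fold in either direction lay within the interval, and for Mmp19 a change of 1.5-fold upward did.

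Among the inhibitors, only Timp2 was abundant. Timp2 (ENSMUSG00000017466.9, chromosome 11, 118301069 to 118355740, minus strand), which besides blocking metalloproteinases takes part in the activation of gelatinase A together with Mmp14, averaged 2178 normalized counts in room air and 2136 after smoke in the authors' deposited table. Its log2 change was -0.026 (SE 0.21, adjusted p 0.964 by DESeq2), and the 95% Wald interval of 0.74-fold to 1.3-fold left no room for a 1.5-fold change. Cep295nl, which overlaps Timp2 on the same strand, had means of 6.09 and 2.79 normalized counts.

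Timp1 (ENSMUSG00000001131.11, chromosome X, 20870166 to 20874735, plus strand), the inducible secreted inhibitor, averaged 5.33 normalized counts in room air and 2.81 after smoke in the authors' deposited table, a log2 change of -0.83 (SE 0.87, adjusted p 0.626 by DESeq2). Timp3 (ENSMUSG00000020044.13, chromosome 10, 86300372 to 86349506, plus strand), an inhibitor that is held in the matrix and also blocks Adam17, was at 2.32 and 0.976 in that table of the authors, with a log2 change of -1.02 (SE 1.92, adjusted p 0.815). Neither difference exceeded its error. Both genes, like Mmp14, are also expressed by stromal cells, whose 8 markers were all listed. Those markers summed to 49 normalized counts in room air and 11.2 after smoke, the 7 tested ones all had a log2 change below 0 with a median of -2.02, and none passed the adjusted threshold. Their part in the values of Timp1, Timp3 and Mmp14 was not tested. Timp1 overlaps Syn1 and Timp3 overlaps Syn3, each on the opposite strand. Syn1 had 86.9 and 86.5 normalized counts, more than Timp1, and whether reads were counted by strand is not stated, so the level of Timp1 is uncertain.

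Adam17 (ENSMUSG00000052593.16, chromosome 12, 21323509 to 21373632, minus strand) encodes the sheddase that releases tumour necrosis factor from the cell surface, and it stands outside the matrix metalloproteinase family. It averaged 1472 normalized counts in room air and 1344 after smoke in the authors' deposited table. The log2 change there was -0.13 (SE 0.15, adjusted p 0.684 by DESeq2), with a 95% Wald interval of 0.742-fold to 1.13-fold. The estimate was 0.022 once the dependence of fold changes on the GC content and length of transcripts had been removed, so its sign rests on that choice. Iah1, which overlaps it on the opposite strand, was at 99.4 and 120.3 normalized counts in that authors' table. Adam17 and Timp2 were the 2 genes of the 10 whose interval excluded a 1.5-fold change in both directions.

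**Figure D1:**
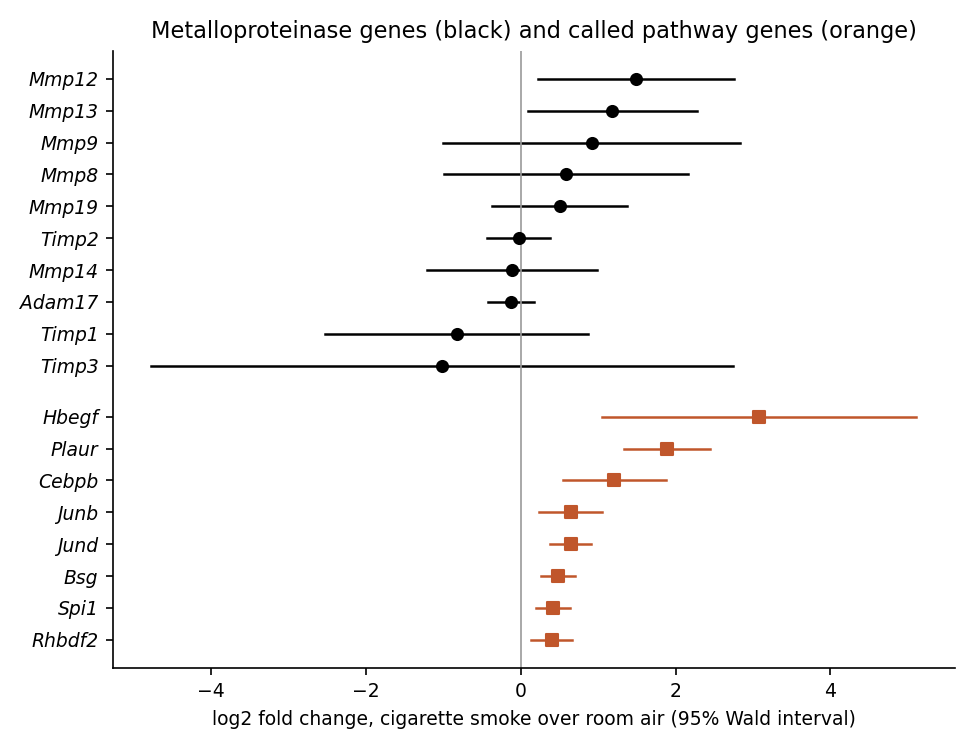
Log2 change of cigarette smoke over room air from the authors' deposited table (points) with 95% Wald intervals (lines), for the 10 genes in black circles and, in orange squares, the 8 genes of the related lists that passed an adjusted p of 0.05. The intervals of Mmp12 and Mmp13 lie just above 0, those of Timp2 and Adam17 are narrow around 0, and that of Timp3 is the widest.

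To compare genes with one another, the group means were divided by the length of the longest annotated transcript and are given as normalized counts per kb. In room air the order was Timp2 at 587.2, Adam17 at 329.4, Mmp12 at 147.8, Mmp19 at 33.2 and Mmp13 at 11.5 normalized counts per kb. Timp1 at 6.04, Mmp8 at 5.89, Mmp14 at 2.16, Timp3 at 0.492 and Mmp9 at 0.355 followed. After smoke Mmp12 stood at 414.8 normalized counts per kb, above Adam17 at 300.7, while Timp2 stayed first at 575.8. With no value per library, the differences between neighbours in this order cannot be set against their spread.

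Summed over the 6 metalloproteinases, the level per length was 200.9 normalized counts per kb in room air and 498.6 after smoke. Mmp12 held 73.6% of that sum in room air and 83.2% after smoke, so the sum follows 1 gene. Without Mmp12 the other 5 summed to 53.1 and 83.8. The 3 inhibitors summed to 593.7 and 579.2 normalized counts per kb, of which Timp2 held 98.9% and 99.4%. The ratio of summed inhibitors to summed metalloproteinases was thus 2.96 in room air and 1.16 after smoke. This ratio of RNA levels carries no test and rests on the Mmp12 difference that did not pass the threshold.

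**Figure D2:**
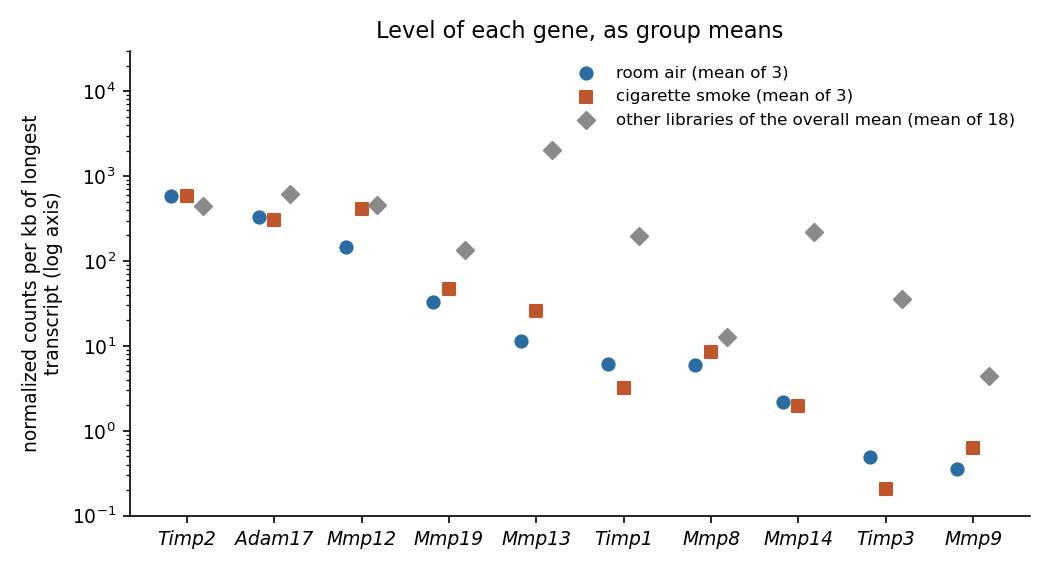
Group means in normalized counts per kb of the longest transcript (log axis) for each gene, ordered by the room air level: circles for room air (3 libraries), squares for cigarette smoke (3 libraries) and diamonds for the mean of the other 18 libraries behind the authors' overall mean. Mmp13, Mmp14, Timp1 and Timp3 have diamonds far above both groups described here.

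The authors' table also gives a mean over 24 libraries, of which 18 are not analysed here and whose groups are not named in the sources used. Their mean was derived by subtraction. For Mmp13 it was 5374 normalized counts, 106.9 times the mean of the 6 macrophage libraries described here. For Mmp14 it was 707, for Timp1 172.9, for Timp3 169.9 and for Mmp9 14.2 normalized counts, which is 105.6, 42.5, 103 and 9.12 times the mean of the 6. These 5 genes had far more RNA somewhere among the other libraries, whose cell type is not named, than in either group described here. Mmp19 at 456.4, Adam17 at 2725, Mmp8 at 30.8 and Mmp12 at 2051 were 3.36, 1.94, 1.77 and 1.63 times the mean of the 6, and Timp2 at 1648 was 0.764 times. A ratio of at least 8 was thus found for 5 of the 10 genes and for 4.58% of all tested genes. Among tested genes with a mean under 10 normalized counts in the 6 libraries, where 4 of these 5 lie, it was found for 41.8%. In the authors' table such genes have an adjusted p only where the mean over 24 libraries is high enough. Mmp13, at a mean of 50.3, is the fifth, and of the genes at 10 or more 2.21% had such a ratio.

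Which libraries entered the authors' estimate of spread is not stated. Mmp12 had a standard error of 0.65 on the log2 scale, against a median of 0.14 among the 1429 tested genes with a mean level within 2-fold of its own, and 99.4% of those genes had a smaller one. The value for Mmp13 was 0.56 against a median of 0.26 among 3122 genes, at the 93.9th percentile. For Mmp19 it was 0.44 against 0.19, at the 94th percentile. All 10 genes had a standard error above the median of genes of similar level, with percentiles from 53.3 for Mmp14 to 99.5 for Timp3. How much of this lies within the 6 macrophage libraries cannot be told from the table.

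**Figure D3:**
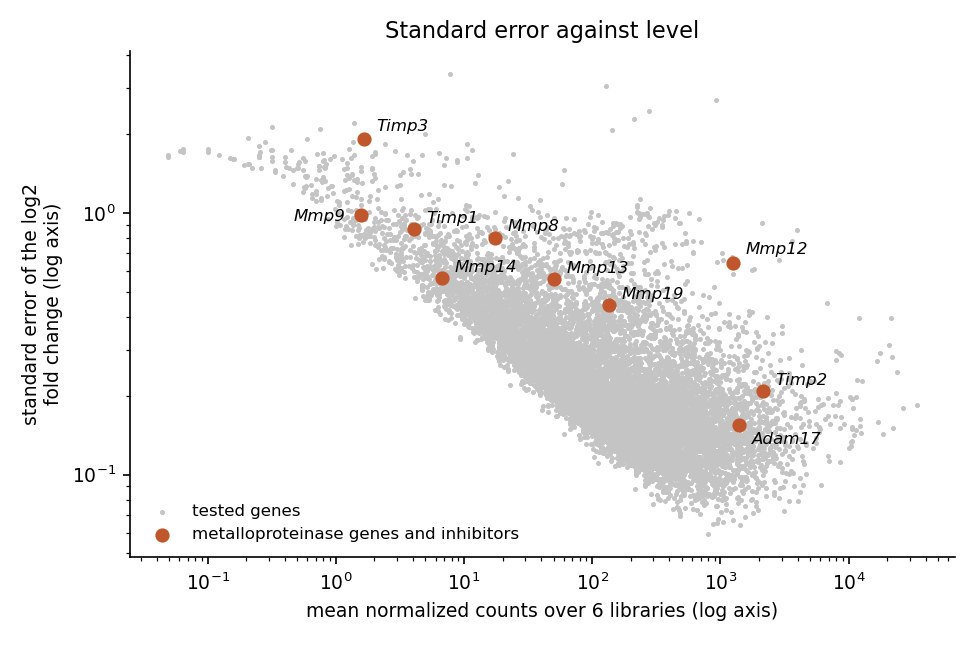
Standard error of the log2 change in the authors' deposited table against the mean of the 6 libraries, both on log axes, for all tested genes (grey) and the 10 genes (orange). Mmp12 lies far above genes of similar level, whereas Adam17 lies among them.

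Mmp13, Mmp12 and Mmp8 belong to a row of 10 Mmp genes within 427.1 kb of chromosome 9, 7272514 to 7699585. Of the 10, 6 were listed in the expression table and 4 reached a mean of 10 normalized counts: Mmp13, Mmp12, Mmp8 and Mmp27. Mmp27, which lies next to Mmp8, averaged 42.2 normalized counts in room air and 33.8 after smoke in the authors' deposited table, its log2 change being -0.27 (SE 0.65, adjusted p 0.865 by DESeq2). Mmp3, between Mmp12 and Mmp8, was at 0.367 and 0.195, and Mmp10 at 0.245 and 0.39 normalized counts. Estimates thus lay above 0 for Mmp13, Mmp12 and Mmp8 and below 0 for Mmp27, and none of the 4 passed the adjusted threshold.

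The splicing of the transcripts was measured for 2 of the 10 genes, Mmp12 and Adam17, in 3 events of JuncBASE, a program that gives the percent of reads assigned to one form of an event in each library. All 3 concern acceptor sites, the points where an exon begins after an intron. The acceptors of Mmp12 are shown because they are the choices compared, each with the last 30 intron bases and the first 10 bases after them, the AG that ends the intron in capitals (GENCODE M21 transcripts, GRCm38, plus strand). The major acceptor opens the second exon of the coding transcripts at 7348585. Another lies 58 bases upstream at 7348527 and is annotated in a transcript classed as a target of nonsense-mediated decay, and the remaining one, at 7347679, ends an intron absent from the annotation.
Major acceptor: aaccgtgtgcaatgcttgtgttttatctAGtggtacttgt
Decay-class acceptor: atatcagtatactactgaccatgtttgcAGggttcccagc
Unannotated acceptor: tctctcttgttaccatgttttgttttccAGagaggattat
All 3 candidate introns end in AG. The 58 bases between the first pair are not a multiple of 3.

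Mmp12 was measured in the class of event that also counts reads within the exon. Its major acceptor was used in 95.7%, 98.4% and 94.2% of these reads in the room air libraries 1, 2 and 3. In the smoke libraries 1, 2 and 3 it was used in 100%, 96.7% and 95.6%. The means were 96.1% ± 2.13 (SD, n = 3) and 97.4% ± 2.3 (SD, n = 3). The groups overlapped. On log2 odds of inclusion the difference was 0.69 (SE 0.81), with a 95% interval of -1.25 to 2.63 (limma, adjusted p 0.683). That value rests on the smoke library at 100%: without it the difference was -0.085 (SE 0.56, limma adjusted p 0.955).

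In Adam17 the event lies in the last coding exon, where a minor acceptor that is not in the annotation skips the first 69 bases of the exon (chr12:21325558-21325626, minus strand). This is the skipped stretch, shown because its loss would remove 23 codons and keep the reading frame, with the AG of the minor acceptor in capitals:
Adam17: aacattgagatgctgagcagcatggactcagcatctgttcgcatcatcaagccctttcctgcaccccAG
From junction reads alone, the major acceptor took 97.2%, 97.8% and 96% in the room air libraries 1, 2 and 3, and 100%, 93.3% and 97.5% in the smoke libraries in the same order. The means were 97% ± 0.932 (SD, n = 3) and 96.95% ± 3.37 (SD, n = 3). The room air values lay within the range of the smoke values. With exon reads added, which counts the same choice and shares the junction reads, the means were 95.7% ± 1.15 (SD, n = 3) in room air and 96.1% ± 4.01 (SD, n = 3) after smoke. The differences in log2 odds, smoke minus room air, were 0.40 for junction reads alone (SE 0.82, limma adjusted p 0.831) and 0.62 with exon reads (SE 0.87, limma adjusted p 0.744). Their sign also rests on smoke library 1, at 100%, without which they were -0.41 (SE 0.51, limma adjusted p 0.727) and -0.31 (SE 0.48, limma adjusted p 0.782).

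None of the 3 events passed limma's adjusted threshold or an unadjusted p under 0.05, against 0% and 10.8% of all 10376 events. In smoke library 1, the library with 100% in each of these events, 4169 of the 10376 events had no value, against 1 to 398 in the other libraries, and the reads behind its levels are not given. Without smoke library 3 limma called 1142 events in all, none of them among the 3. In the authors' deposited table no unadjusted p of the 3 events was under 0.05, which 4.15% of all events reached. The authors' own corrected p-values for the 3 events, in their deposited table, ran from 0.79 for Mmp12 to 0.994 for the junction reads of Adam17.

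**Figure D4:**
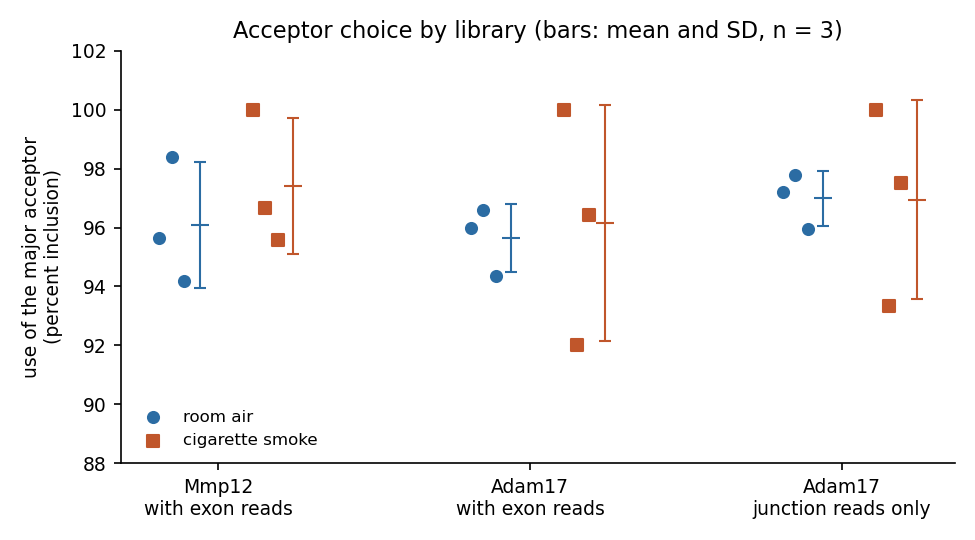
Use of the major acceptor in percent for each library, room air in circles and cigarette smoke in squares, with the mean and SD of 3 libraries beside them, on an axis that does not start at 0. The first smoke library is at 100% in all 3 events and the groups overlap in each.

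The authors' deposited rMATS table, which compares retained introns, held 3 introns of these genes. The intron of Mmp12 that ends at the acceptor of the decay-class transcript (7347539 to 7348526) differed by -9.3 percentage points between sample set 1 and sample set 2 of the authors' table, at a false discovery rate of 0.439. The one that ends at the major acceptor (7347539 to 7348584) had a difference of 0.7 percentage points and a false discovery rate of 1, and an intron of Mmp14 (chromosome 14, 54435894 to 54436137) had a difference of 100 percentage points with a p and a false discovery rate of 1 in that authors' table. None passed a false discovery rate of 0.05, which 14.5% of the 3887 introns did, or of 0.01, which 7.77% did. Which group each set holds is not stated, so no direction is given.

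The surrounding pathway was read from 8 lists, with the same background for each count: 4.15% of all tested genes were higher after smoke and 3.53% lower at an adjusted p under 0.05 in the authors' deposited table. Of 17 other matrix metalloproteinases 11 were listed, 10 of them under 10 normalized counts, 4 were tested and none passed. Of 5 other metalloproteinase inhibitors, Reck and Tfpi2 were listed and neither was tested. Of 12 ADAM and ADAMTS proteases 6 were tested and none passed. The largest change among those with a mean of at least 50 was that of Adam15, with a log2 change of 0.35 (SE 0.21, adjusted p 0.305 by DESeq2) in the authors' deposited table. The median log2 changes were -0.21 for the other metalloproteinases and 0.05 for the ADAM and ADAMTS proteases (0.10 with the dependence on GC content and length removed), against -0.0029 over all tested genes.

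Of 16 regulators and substrates of Adam17, 13 were tested and 2 rose. Rhbdf2, which encodes an inactive rhomboid that carries Adam17 to the cell surface, rose from a mean of 251.6 normalized counts to 330.8 in the authors' deposited table, a log2 change of 0.40 (SE 0.14, adjusted p 0.0456 by DESeq2). Hbegf, a growth factor precursor shed by Adam17, rose from 1.21 to 9.69 normalized counts there, a log2 change of 3.08 (SE 1.04, adjusted p 0.0429 by DESeq2). None fell. The median log2 change of the list was 0.31, or 0.18 over its genes with a mean of at least 50, which leave out Hbegf, and 0.22 with the dependence on GC content and length removed. That removal left 1.27% of 12071 genes past the threshold and neither of these 2, with adjusted p-values of 0.573 and 0.132.

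Of 10 activators and binding partners of metalloproteinases, 8 were tested and 2 rose. Plaur, the receptor of urokinase, the protease that starts plasmin formation and through it the activation of several metalloproteinases, rose from a mean of 75 normalized counts to 272.4 in the authors' deposited table, a log2 change of 1.88 (SE 0.28, adjusted p 1.34e-07 by DESeq2). Bsg, basigin, a surface protein known to induce metalloproteinases in neighbouring cells, rose from 922.7 to 1288, a log2 change of 0.48 (SE 0.11, adjusted p 0.00191 by DESeq2) in that authors' table. None fell. The median log2 change was 0.39, and 0.18 after the same removal, in which Plaur kept an adjusted p of 1.62e-05 and Bsg did not, at 0.728.

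Of the 17 transcription factors known at metalloproteinase promoters all were tested, 4 rose and none fell. Junb, a subunit of AP-1 dimers, rose from a mean of 218.4 normalized counts to 338.7 in the authors' deposited table. Its log2 change was 0.64 (SE 0.21, adjusted p 0.0323 by DESeq2). Jund, another AP-1 subunit, rose by 0.64 (SE 0.13, adjusted p 0.000332) on that scale of the authors' DESeq2 table, Cebpb by 1.21 (SE 0.34, adjusted p 0.0117) and Spi1, which encodes the macrophage factor PU.1, by 0.41 (SE 0.11, adjusted p 0.00813). The other AP-1 genes of the list did not pass and were named after their values were seen. Their log2 changes in the authors' deposited table were 0.10 (SE 0.24) for Jun, -0.57 (SE 0.45) for Fos and -0.69 (SE 0.59) for Fosb. Those of Fosl1 and Fosl2 were 1.76 (SE 0.70) and 0.18 (SE 0.44), Fosl1 being at means of only 1.37 and 4.53. Binding of AP-1 to the motif printed for Mmp12 and Mmp13 was not tested. The list's median was 0.11. None of the 4 passed once that dependence had been removed, their adjusted p-values then running from 0.444 to 0.856.

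Of 14 genes for elastin-degrading serine proteases, cathepsins and their inhibitors, 8 were tested and none passed. The 8, among them the aspartic protease gene Ctsd, had log2 changes above 0 (median 0.13), while the listed but untested Ctsg and Serpinb1a were lower after smoke than in room air, at 0 against 0.6 and 7 against 10.3 normalized counts. Cst3, cystatin C, an inhibitor of cysteine cathepsins, had the largest among those with a mean of at least 50, at 0.37 (SE 0.20, adjusted p 0.259 by DESeq2) in the authors' deposited table. Of 14 matrix substrates 13 were tested and none passed, with a median log2 change of -0.86, which became 0.15 over the 3 whose mean was at least 50. Of the substrates, 3 (Col1a1, Col1a2 and Col3a1) are also among the 8 stromal markers, whose sum was 49 normalized counts in room air and 11.2 after smoke and whose tested members had a median of -2.02. Their part in the median of the substrates was not tested. Of the 3 at a mean of at least 50, Thbs1, which encodes the matrix glycoprotein thrombospondin-1, had the largest change, at -0.84 (SE 0.43, adjusted p 0.222 by DESeq2) in the authors' deposited table.

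As a check of the labelled cell type, the 8 macrophage markers were all listed at a mean of at least 50, summed to 52689 normalized counts in room air and 54621 after smoke, and none passed the adjusted threshold. The 2 B cell markers listed of 3 summed to 0.251 and 0.0976. Of 6 osteoclast markers, named because osteoclasts also make Mmp9 and Mmp14, 5 were listed and summed to 40.3 and 66.2 normalized counts, with no call. Dcstamp, needed for the fusion of osteoclasts, makes up most of that difference, at 15.5 normalized counts in room air and 37.6 after smoke in the authors' deposited table, a log2 change of 1.28 (SE 0.52, unadjusted p 0.0127, adjusted p 0.0997 by DESeq2). Acp5 was at 13.2 and 11.6 normalized counts, and both were named after their values were seen. Of 5 dendritic markers, Zbtb46 was at 0.322 and 1.02 and Itgax, which macrophages also express, at 31.7 and 107.8 normalized counts in the authors' deposited table (adjusted p 0.0571 by DESeq2). The part of osteoclast and dendritic markers in the values of the metalloproteinases was not tested.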

How the data were processed

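RNA-seq libraries of 3 room air and 3 cigarette smoke macrophage cultures were grouped by sample title. STAR, DESeq2, SAMtools 1.9, bedtools 2.27.1 and build mm10 were used by the authors, per the submitters' processing notes, which give no settings. The authors deposited, per the file headers, means of normalized counts as signal per group and over 24 libraries. They also deposited log2 fold changes with standard errors, the Wald score, and p-values with adjusted p-values. The authors' comparison is described as planned. A separate test, planned only for library values, was not run because these were lacking. Of the 7304 genes without an adjusted p, 13 had no p either, and the other 7291 had a 24-library mean of at most 8.52. The JuncBASE table deposited by the authors gives percent inclusion per library, and the differences of inclusion are other quantities in the authors' tables. Differences of rMATS retained introns were used, and 6 columns of per-sample values there were not.

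Wald intervals (95%) were computed from the deposited standard errors. Inclusion levels p were turned into log2((p + 1)/(100 - p + 1)) and tested on all 10376 events with limma 3.58.1 in R 4.3.3, with Benjamini-Hochberg adjustment. Tested on simulated levels of 10376 events, it recovered 0% of 200 changes of 2 log2 odds, 39% of 4 and 93% of 8. The trend of fold changes in transcript GC content and log2 length (GENCODE M21) was fitted over 12071 genes by weighted least squares in statsmodels 0.14.6, with 4 degrees of freedom per spline. Tested on simulated data for those 12071 genes, it recovered 96.5% of 200 whose log2 change was set to 2.

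The 10 genes, the 8 pathway lists, the 6 marker lists (macrophage, neutrophil, stromal, osteoclast, dendritic and B cell) and the rule for named genes were chosen with earlier results of these data known. The rule names the 10 genes, each list gene with an adjusted p under 0.05, or else the list's largest change at a mean of at least 50, and family members of the chromosome 9 cluster. Alternatives were other thresholds, filters, pseudocounts and centring, removal of the trend, a replicate block and leaving out each library.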

Additional observations from a re-analysis of the deposited data

How the results depend on the processing

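The count of 0 genes past the threshold was also 0 at an adjusted p of 0.1, at a mean of at least 50, with no filter and with the GC and length trend removed. An adjusted p of 0.01 and a 1.5-fold minimum, being stricter, could not have raised it. The lowest adjusted p among the 10 genes, that of Mmp12, was 0.119 with the minimum mean, 0.208 with no filter and 0.179 without the trend. Removing the trend moved the share over all tested genes from 7.69% to 1.27%, or 153 of 12071. The direction of the fold change was kept in 39 of 40 combinations of gene and alternative, most of which could hardly have reversed it. A pseudocount cannot change which group mean is larger, and centring subtracted only the median of -0.0029. Sizes of low genes moved: with a pseudocount of 10, Mmp9 went from 0.91 to 0.11, Timp1 from -0.83 to -0.26 and Timp3 from -1.02 to -0.17. The direction reversed for Adam17 without the trend, from -0.13 to 0.022 on the log2 scale. The count of the Adam17 regulators and substrates moved from 2 to 1 at a mean of at least 50, where Hbegf drops out, and to 0 without the trend. Without the trend the activators and partners moved from 2 to 1 and the transcription factors from 4 to 0. The expression table holds no library values, so neither a left-out library nor a block could be run on it. For splicing, 0 of the 3 events passed under all 11 alternatives, the 6 left-out libraries included, where the count was 0 to 0. The replicate block and the limit to events with a value in all 6 libraries returned the same differences, so they could not reverse a direction. With these included, the difference in log2 odds kept its direction in 27 of 30 combinations of event and alternative. It reversed for all 3 events without cigarette smoke replicate 1. Over the left-out libraries it ran from -0.085 to 1.17 for Mmp12, from -0.41 to 1.11 for the junction reads of Adam17 and from -0.31 to 1.34 with exon reads. Over all events, the count was 1142 in place of 0 without cigarette smoke replicate 3. With the replicate block 0 events passed, and the lowest adjusted p of the 3 was 0.698. The libraries share only a number: deviations from the group means correlated at 0.0177, -0.0404 and -0.0888 for numbers 1, 2 and 3 over 5933 events. Only room air library 1 correlated best with its own number, and the highest correlation, 0.127, was between room air library 2 and smoke library 3. For the retained introns both alternatives were stricter than the threshold under which 0 of 3 passed, so they could not have changed it. Depth per library is unknown, and at means of a few normalized counts, as for Mmp9, Timp1 and Timp3, a 2-fold fall lies within the intervals.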

Other observations

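High levels in the 18 other libraries behind the authors' overall mean were also found for related genes. Of the 69 tested genes of the 8 pathway lists, 24 (34.8%) had a mean in those libraries of at least 8 times the mean of the 6 macrophage libraries, against 4.58% of all tested genes. Of the 24, 13 lay under a mean of 10 normalized counts in the 6 libraries, where whether a gene was tested depended on the mean over all 24 libraries: 13 of 17 such list genes (76.5%) had this ratio, against 41.8% of all such tested genes. At 10 or more it was 11 of 52 list genes (21.2%), against 2.21%. Tnf, the main substrate of Adam17, had 11642 normalized counts in the other libraries, 147.9 in room air and 318.3 after smoke. Icam1, an adhesion molecule shed by Adam17, had 9181, 464.5 and 656.4. Adamts4, which cuts aggrecan, had 423.9, 1.82 and 1.52, and Lcn2, which binds gelatinase B, had 388.4, 2.06 and 3.62; both lie under a mean of 10 in the 6 libraries. The lists were chosen with earlier results of these data known, and the 4 genes named here were chosen for these levels, after their values had been seen. What the other libraries hold is not given in the sources used here.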
